A study of Mus musculus with 2 samples.

Results

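The genes described here encode proteins of the red cell membrane and of the protein mesh beneath it, together with Hemgn, a nuclear protein of blood-forming cells. The 8 genes are Slc4a1, Rhag, Ermap, Kel, Sptb, Ank1, Car2 and Hemgn, out of 18193 genes that the array reads with a probe set naming exactly 1 gene. All probe sets whose platform annotation gave one of these symbols and no other were taken, which gave 14 probe sets. No probe set named a member together with another gene.

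Whole mouse embryos collected 8.5 days post coitum (dpc) supplied the RNA, which was amplified, labelled with biotin and hybridised to Affymetrix mouse arrays. In matUPD18 embryos both copies of chromosome 18 came from the mother (maternal uniparental disomy), and in patUPD18 embryos both came from the father (paternal uniparental disomy). Each genotype was measured on 1 array, at the same age and from the same tissue; how many embryos were pooled for each is not stated in the sources used here. With no replicate arrays there was no test between genotypes, no standard error and no p-value. All 8 genes lie on other chromosomes (3, 4, 6, 8, 11, 12 and 17), outside the disomic one, so the disomy itself does not set which parent's copy of them is present.

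At this stage the circulating blood of the mouse embryo consists of primitive red cells, which arise in the yolk sac and enter the embryo as the heart begins to beat. A red cell keeps its shape through a mesh of spectrin, actin and associated proteins on the inner face of the membrane. Ankyrin ties that mesh to the anion exchanger in the membrane, around which transport proteins and blood group proteins gather. In bulk RNA, fewer red cells and less of these transcripts per red cell cannot be told apart.

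RefSeq promoter sequence (build GRCm38.p6) was at hand for Ermap, Hemgn, Kel, Rhag and Sptb. The stretches below are the 150 bases before the start of each of these genes, 5′ to 3′ on the gene's strand. Whether their letters bear on the ratios was not tested. Capitals mark the letters AGATAA or TGATAA, the core that erythroid GATA factors bind. Where the match lies on the opposite strand it appears as TTATCA.
Ermap, chr4:119189996-119190145, minus strand: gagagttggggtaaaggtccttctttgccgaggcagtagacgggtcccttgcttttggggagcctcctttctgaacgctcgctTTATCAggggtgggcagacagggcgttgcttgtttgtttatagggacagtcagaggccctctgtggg
Hemgn, chr4:46404184-46404333, minus strand: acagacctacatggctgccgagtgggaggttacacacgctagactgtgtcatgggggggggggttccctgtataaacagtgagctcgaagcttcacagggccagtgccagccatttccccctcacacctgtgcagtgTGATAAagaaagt
Kel, chr6:41704326-41704475, minus strand: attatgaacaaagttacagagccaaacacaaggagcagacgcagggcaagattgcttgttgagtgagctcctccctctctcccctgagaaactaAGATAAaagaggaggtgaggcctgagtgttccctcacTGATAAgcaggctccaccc
Rhag, chr17:40810999-40811148, plus strand: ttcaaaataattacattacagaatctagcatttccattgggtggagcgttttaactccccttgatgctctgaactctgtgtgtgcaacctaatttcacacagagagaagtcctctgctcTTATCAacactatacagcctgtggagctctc
Sptb, chr12:76710548-76710697, minus strand: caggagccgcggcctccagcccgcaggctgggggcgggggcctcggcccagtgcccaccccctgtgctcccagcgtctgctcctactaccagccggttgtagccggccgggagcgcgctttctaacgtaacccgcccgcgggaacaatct

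In the 250 bases before the start, searched on both strands, AGATAA or TGATAA occurred in 4 of these 5 promoters. The same letters were found in 16.6% of the 32851 RefSeq promoter windows of that length. Kel held 2 matches, whose first bases lay 56 and 19 bases before the start, and 2.72% of all windows held 2 or more. The matches began 13 bases before the start in Hemgn, 31 in Rhag and 67 in Ermap. A match to CCNCNCCC, a form of the CACCC box that Klf1 binds, was present in Hemgn and Sptb and in 45.9% of all windows. The 4 Hemgn matches overlap within a single run of G, and of the 3 in Sptb the 2 on the opposite strand overlap. These are letter matches and say nothing of whether a factor was bound.

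The array values are MAS5 signals, intensities on a linear scale that the authors scaled to the same mean level on each array. A probe set counted as measurable if its higher signal was at or above the 60th percentile of that array, which was 190.1 for matUPD18 and 184.9 for patUPD18. Signals under the 40th percentile (84.2 and 82.5) were raised to it before log2 was taken. Of the 14 probe sets, 11 were measurable, and each of the 8 genes had at least 1 that was. Each gene is given by its brightest probe set, and log2 ratios are matUPD18 over patUPD18. As a technical yardstick, genes with several measurable probe sets gave a pooled within-gene SD of the log2 ratio of 0.44 (10206 probe sets, 4003 genes). It describes disagreement within these arrays and holds no difference between embryos.

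Ermap, Slc4a1 and Hemgn were each at least 2-fold lower in matUPD18, with signals above the measurable level on both arrays. Kel and Rhag read 1.86-fold and 1.62-fold lower, but counted as measurable only through patUPD18, the array where they are high, and Ank1, Car2 and Sptb lay within 1.25-fold. Thus 3 of 8 members were at least 2-fold lower in matUPD18, where 1.78% of the 10483 measurable genes were. None of the 8 passed 2-fold in the other direction, where 2.70% of measurable genes did. Log2 ratios were below 0 in 6 of the 8 genes and in 53.9% of measurable genes. The median log2 ratio was -0.79 over the 8 genes and -0.04 over all measurable genes. The -0.79 lies between Kel and Rhag, the middle genes by ratio, so it rests on genes measurable only through patUPD18. With low signals raised to the 60th percentile instead, the median of the 8 genes was -0.45. The genes were chosen with earlier results of these arrays known, so these counts are a description of the 8.

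**Figure D1:**
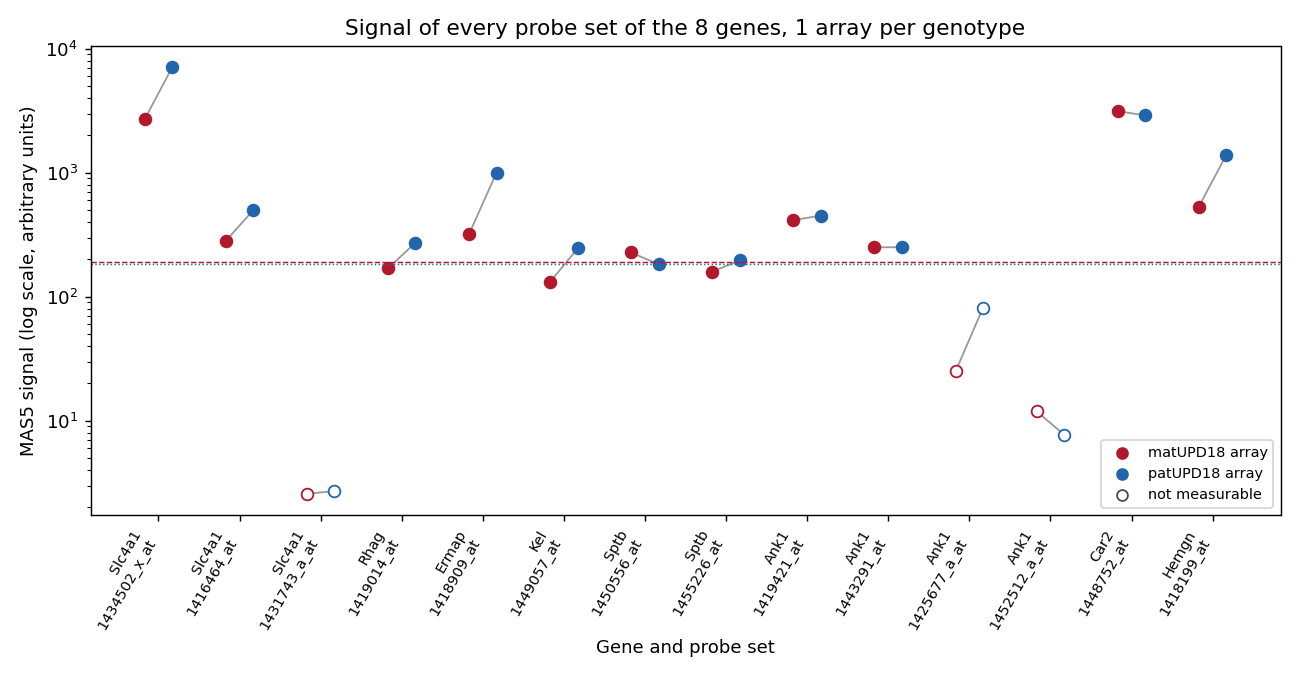
MAS5 signal (log axis, arbitrary units) of all 14 probe sets of the 8 genes, with the matUPD18 array on the left of each pair in red and the patUPD18 array on the right in blue; dashed and dotted lines mark the signals from which a probe set was measurable (190.1 and 184.9), and open points were not measurable. The pairs of Slc4a1, Rhag, Ermap, Kel and Hemgn are higher on the patUPD18 side, with the dimmest Slc4a1 probe set nearly level at 2.58 and 2.71.

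Slc4a1 encodes the anion exchanger of the red cell, also called band 3, which swaps chloride for bicarbonate and anchors the mesh through ankyrin. Its brightest probe set, 1434502_x_at, read 2695 in matUPD18 and 7093 in patUPD18. The ratio was 2.63-fold lower in matUPD18, a log2 ratio of -1.40. The next probe set, 1416464_at, read 282 in matUPD18 and 499.5 in patUPD18, 1.77-fold lower in matUPD18 (log2 ratio -0.83). The direction was thus shared by both measurable probe sets, and only the brighter passed 2-fold. The suffix of the brighter one marks probes that may match other transcripts as well. The remaining probe set, 1431743_a_at, read 2.58 and 2.71 and was not measurable.

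Rhag, the Rh-associated glycoprotein, is a channel of the ammonium transporter family and is needed for the Rh complex to reach the red cell surface. Its only probe set, 1419014_at, read 169.1 in matUPD18 and 273.2 in patUPD18. It was 1.62-fold lower in matUPD18 (log2 ratio -0.69). The matUPD18 signal lay under the measurable level of its array and above the floor. Rhag thus counted as measurable through its patUPD18 signal, where it is high. Of all measurable genes, 5.60% had a ratio as low, and 10.6% did in the dimmest of 4 equal bins of measurable genes by mean signal.

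Ermap is a red cell membrane protein of the immunoglobulin superfamily, related to butyrophilins, that carries the Scianna blood group in humans. Its only probe set, 1418909_at, read 319.4 in matUPD18 and 1005 in patUPD18. The signal was 3.15-fold lower in matUPD18, with a log2 ratio of -1.65. This was the lowest ratio of the 8 genes and the 16th lowest of the 10483 measurable genes, of which 0.153% had a ratio as low. Among the 2621 measurable genes of the same signal bin, 0.114% had a ratio as low.

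Kel, the Kell blood group protein, is a surface endopeptidase of the neprilysin family. Its probe set 1449057_at read 132.0 in matUPD18 and 245.3 in patUPD18. It was 1.86-fold lower in matUPD18 (log2 ratio -0.89), just inside the 2-fold limit. As for Rhag, the matUPD18 signal was under the measurable level. With low signals raised to the 60th percentile instead, the Kel log2 ratio was -0.37. Ratios as low occurred in 6.22% of the dimmest bin.

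Sptb encodes the red cell beta spectrin, the long flexible strand of the mesh, and is also made in muscle and brain. Probe set 1450556_at read 227.5 in matUPD18 and 182.2 in patUPD18, a log2 ratio of 0.32. Probe set 1455226_at read 159.5 in matUPD18 and 196.4 in patUPD18, a log2 ratio of -0.30. Each probe set was measurable only through the array where it read higher. The probe sets lay on opposite sides of 0, each by less than the pooled SD between probe sets, and their median was 0.01. No direction can be given for Sptb from these arrays.

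Ank1, the ankyrin that links spectrin to the anion exchanger, is made in muscle and brain as well as in red cells. Its brightest probe set, 1419421_at, read 415.8 in matUPD18 and 450.9 in patUPD18 (log2 ratio -0.12). The second, 1443291_at, read 250.2 and 251.3 (log2 ratio -0.01), so the arrays were close by both. Probe sets 1425677_a_at (25.0 in matUPD18 and 81.9 in patUPD18) and 1452512_a_at (11.9 and 7.72) were not measurable.

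Car2 is a cytosolic carbonic anhydrase, abundant in red cells, that supplies bicarbonate to the anion exchanger and is also made by many other tissues. Its probe set 1448752_at read 3142 in matUPD18 and 2899 in patUPD18. The log2 ratio was 0.12, and 64.3% of measurable genes had a ratio as low. Bright signal on both arrays thus went with near-equal values for Car2, whereas Slc4a1, also in the brightest bin, differed by 2.63-fold.

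Hemgn (hemogen) is a nuclear regulator of blood cell growth and maturation, and is not a membrane protein. Its probe set 1418199_at read 533.3 in matUPD18 and 1399 in patUPD18. It was 2.62-fold lower in matUPD18, with a log2 ratio of -1.39. Slc4a1 and Hemgn ranked 55th and 57th lowest of all measurable genes. In their signal bins, 0.191% and 0.267% of genes had ratios as low.

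**Figure D2:**
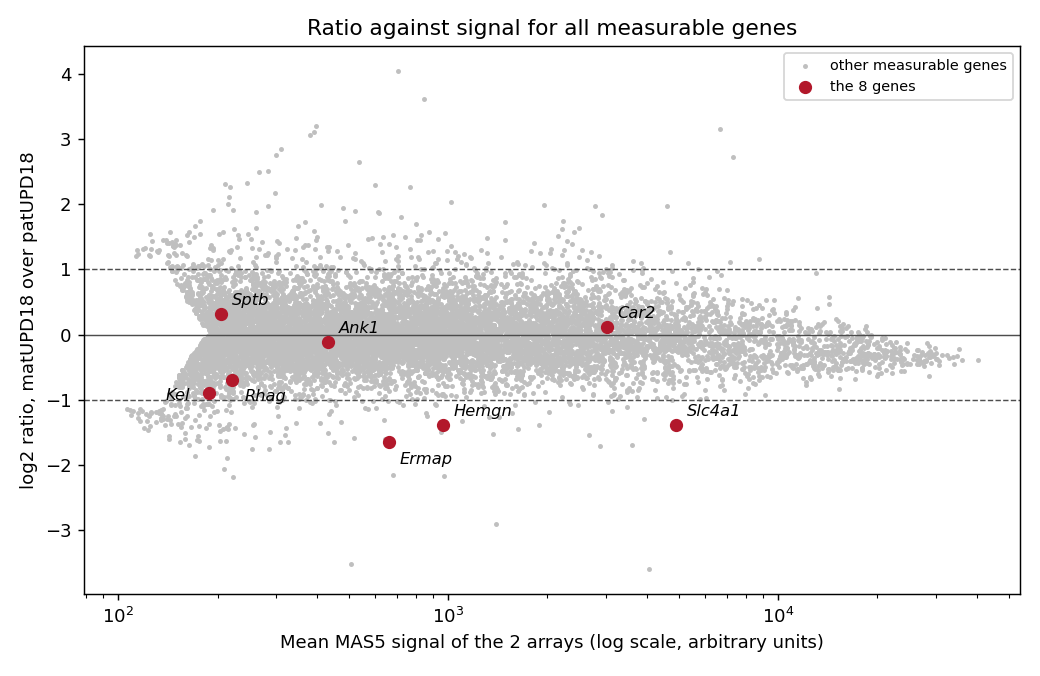
Log2 ratio of matUPD18 over patUPD18 against mean MAS5 signal (log axis, arbitrary units) for the 10483 measurable genes in grey, with the 8 genes in red and dashed lines at 2-fold. Ermap, Hemgn and Slc4a1 lie below the band of genes of like signal, Kel and Rhag lie in its lower part among dim genes, and Sptb, Ank1 and Car2 lie in its middle.

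Across the 8 genes the log2 ratios spanned 1.97, between -1.65 for Ermap and 0.32 for Sptb. Of their 11 measurable probe sets, 9 had a ratio below 0 and 2 above. The exceptions were 1 probe set of Sptb and that of Car2. Spread among ratios also depends on signal. In the dimmest bin, 4.65% were at least 2-fold lower in matUPD18, against 0.534% in the brightest. Kel, Rhag and Sptb were in the dimmest bin, Ank1 and Ermap in the second, Hemgn in the third and Slc4a1 and Car2 in the brightest.

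Proteins that work beside these in the red cell membrane were looked at as a list of 31 genes, of which 28 were on the array and 20 measurable. At the 2-fold limit 1 of these was lower in matUPD18 (1.78% of all measurable genes) and none higher (2.70%), which left 19 inside it. Their median log2 ratio was -0.29, with 14 genes below 0 and 6 above. Over all measurable genes the median was -0.04, with 53.9% below 0. Kcnn4, the calcium-activated potassium channel that shrinks red cells, read 116.5 in matUPD18 and 392.7 in patUPD18, 3.37-fold lower in matUPD18. It counted as measurable only through patUPD18, where it is high. Its other probe set was not measurable. The brightest genes of the list were close on both arrays. Cd24a, a surface glycoprotein, had a log2 ratio of -0.29, and the glucose transporter gene Slc2a1 one of 0.05. Add1, an adducin that caps actin in the mesh, had -0.18, and the transporter gene Abcg2 had 0.14. Both Cd24a and Slc2a1 are also made outside blood.

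At a 1.5-fold limit, 5 of the 8 genes were lower in matUPD18 (Ermap, Slc4a1, Hemgn, Kel and Rhag), where 8.74% of all measurable genes were. Kel and Rhag enter that count through their patUPD18 signal alone. None was 1.5-fold higher, where 9.97% were. At 3-fold Ermap alone was lower (0.267% of measurable genes) and no member was higher (0.458%). Back at 1.5-fold, 4 genes of the partner list were lower, namely Kcnn4, Rhd, Trim10 and Tspan33, the last 3 of which were singled out after their values were seen. Rhd, the Rh protein that pairs with Rhag, read 139.2 in matUPD18 and 270.1 in patUPD18 (log2 ratio -0.96). Like Kcnn4, it was measurable only through patUPD18. Trim10, a factor needed for red cell maturation, had a log2 ratio of -0.71, and Tspan33, a tetraspanin of red cell precursors, had -0.64 and -0.55 by its 2 measurable probe sets. Add2, the beta adducin typical of red cells and brain, had -0.40 and -0.99 by its 2 measurable probe sets. The probe set with -0.99 (154.4 in matUPD18 and 307.5 in patUPD18) was measurable only through patUPD18. The highest partners were Bsg (0.48), Mpp1 (0.43) and Dmtn (0.42, and 0.20 by its other measurable probe set). These 4 genes were also named with their values in view. No partner was 1.5-fold higher in matUPD18. The partner genes Gypc (log2 ratio -0.33) and Slc14a1 (not measurable) lie on chromosome 18.

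A further list held 27 relatives of red cell membrane and skeleton genes, most of them made in many tissues. It covers the families of the 8 genes and the Epb41 family, which links spectrin to membrane proteins and has no member among the 8. Of these, 25 were on the array and 19 measurable, and by their brightest probe sets none was 2-fold apart in either direction. Their median log2 ratio was 0.18, with 15 genes above 0 and 4 below. Over all measurable genes the median was -0.04, with 53.9% below 0. Relatives were set beside the member of their family with the values in view. Among spectrins, Sptbn1 had a log2 ratio of 0.36 and Sptan1 one of 0.18 (0.49 by its other measurable probe set). Sptb had 0.32 by its brightest probe set and -0.30 by the other. Among anion exchangers, Slc4a2 had 0.01 and Slc4a3 had 0.84. The difference of the brightest Slc4a1 probe set from them was -1.41 and -2.24 log2 units, and the other measurable Slc4a1 probe set had a ratio of -0.83. Among ankyrins, Ank2 had 0.39 and Ank3 had 0.73 by its brightest and -0.04 by its dimmest measurable probe set. Slc4a3 (321.0 in matUPD18 and 179.5 in patUPD18) and Ank2 (239.5 and 183.0) were measurable only through matUPD18, where they are high. Among relatives of Kel, Ece1 had 0.26, Ece2 had 0.03 and Mme had 0.73. Carbonic anhydrase genes read on either side of Car2, with 0.80 for Car4, 0.04 for Car3, -0.05 for Car12 and -0.47 for Car14. The other measurable probe set of Car4 had 1.04, past 2-fold higher in matUPD18. Of the Epb41 family, the chromosome 18 gene Epb41l4a had -0.63. The Rhag relatives Rhbg and Rhcg, the red cell gene Car1 and the Ermap relative Btn1a1 were not measurable.

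Actin, tropomyosin and the capping and actin-binding proteins that many cells share made up a list of 14 genes. By their brightest probe sets, none of the 13 measurable ones was 2-fold apart, and the median log2 ratio was -0.24. It was 0.03 after quantile normalization, so no direction is given for this list. The brightest were Cfl1 (-0.43), Actg1 (-0.32), Tpm3 (-0.24) and Actb (0.04), and the other measurable probe set of Cfl1 had -1.53. Tmod3, which caps the slow end of actin filaments, had 0.68 by its brightest probe set, and -0.03 and -0.29 by the other 2. Tmod3 was named with its value in view, the highest of the list by brightest probe sets.

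**Figure D3:**
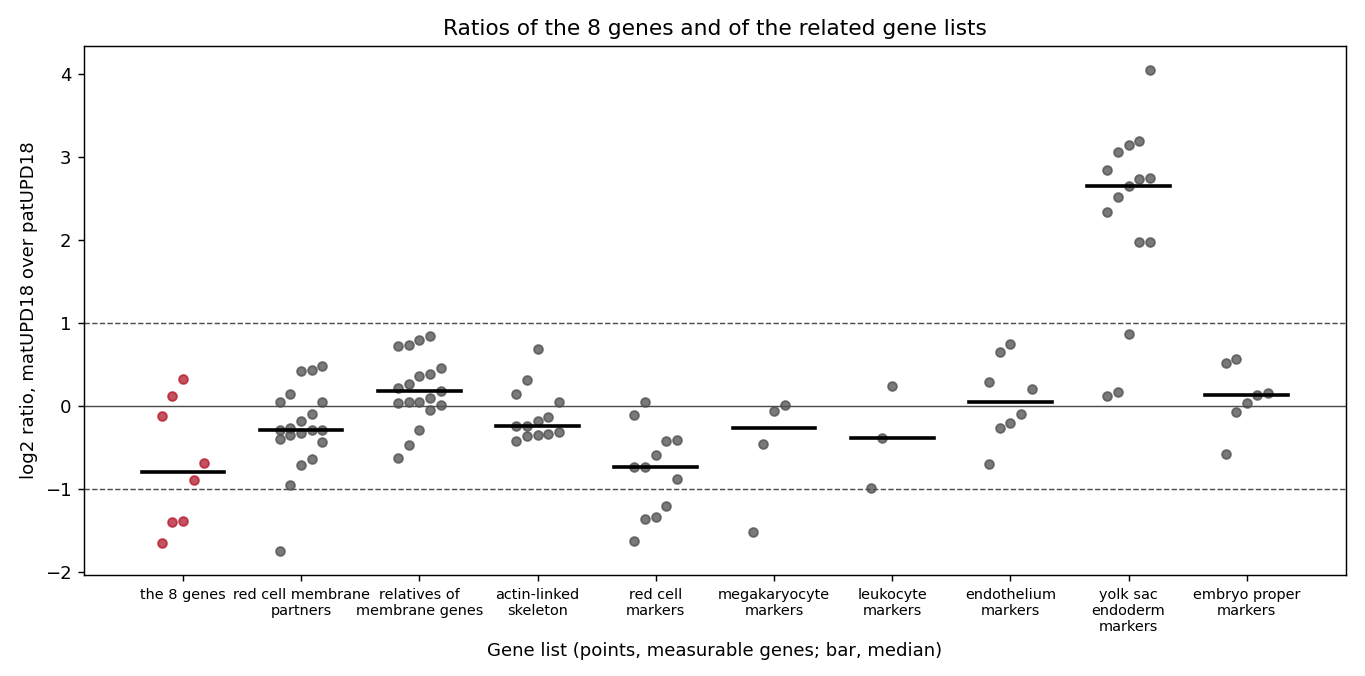
Log2 ratio of matUPD18 over patUPD18 for the measurable genes of each list (points), with the list's median as a bar and dashed lines at 2-fold. The medians of the 8 genes (-0.79) and of red cell markers (-0.74) lie below 0, while that of yolk sac endoderm markers (2.65) lies above.

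Markers of red cells also read lower in matUPD18. Of 17 listed, 16 were on the array and 12 measurable. Past 2-fold, 4 were lower in matUPD18, where 1.78% of all measurable genes were, and none was higher, where 2.70% were. The median log2 ratio of the 12 was -0.74. Their summed signal was 52461 in matUPD18 and 73083 in patUPD18. The 4 were the transcription factor genes Gfi1b (-1.64), Gata1 (-1.37) and Klf1 (-1.35) and the haem synthesis gene Alas2 (-1.21), named after their values were seen. Gfi1b (98.9 in matUPD18 and 307.2 in patUPD18) and Gata1 (143.9 and 371.4) were measurable only through patUPD18. Of the 6 brightest, the embryonic globin genes Hbb-y (-0.43), Hbb-bh1 (-0.60) and Hba-x (-0.88) read lower, Lmo2 had -0.10 and the transferrin receptor gene Tfrc had 0.04. Fech, a haem synthesis gene on chromosome 18, had -0.74, -0.45 and 0.06 by its 3 measurable probe sets. The ratios of Ermap, Slc4a1 and Hemgn were close in size to those of the 4 genes and lay below those of the globins by their brightest probe sets. The dimmest measurable probe set of Hbb-bh1 had -2.00 and that of Hbb-y had -2.03.

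Markers of other blood cells were mostly dim. Of 9 megakaryocyte and platelet genes on the array, 4 were measurable. At least 2-fold lower in matUPD18 was 1 of them, Pf4, where 1.78% of all measurable genes were. Pf4 read 123.6 in matUPD18 and 356.2 in patUPD18 and was measurable only through patUPD18. Gp9, Gp6, Ppbp and Vwf were under the floor on both arrays, and the summed signal of the measurable genes was 979 in matUPD18 and 1323 in patUPD18. Of 10 macrophage and leukocyte genes 3 were measurable, with log2 ratios of 0.24 for Adgre1, -0.39 for Lyz2 and -0.99 for Laptm5. The other measurable probe sets of Laptm5 had 0.06 and -1.19. By brightest probe sets the summed signal of the 3 genes was 725 in matUPD18 and 961 in patUPD18. Aif1, Fcer1g and Coro1a were under the floor on both arrays. Endothelial markers, from cells that share an origin with blood, had 8 of 10 measurable, none 2-fold apart, and a median log2 ratio of 0.05. Their summed signal was 4399 in matUPD18 and 3787 in patUPD18.

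Markers of yolk sac endoderm, the layer beside the blood islands, ran the other way. Past 2-fold, 12 of the 15 listed (all measurable) were higher in matUPD18, where 2.70% of all measurable genes were. The summed signal of the 15 was 37590 in matUPD18 and 6896 in patUPD18. Of the 12, only Afp, Ttr and Rbp4 were above the measurable level on both arrays. The others, such as Apob (923.8 in matUPD18 and 147.6 in patUPD18), counted as measurable only through matUPD18, where they are high. Ttr and Spink1, both among the 12, lie on chromosome 18, the disomic one. Whether the amount of yolk sac or blood carried with the embryos differed between the 2 RNAs was not tested. Markers of the embryo proper were present on both arrays, with 7 of 9 measurable, none 2-fold apart and a median of 0.13. Among them the heart gene Tnnt2 read 6777 in matUPD18 and 7159 in patUPD18. Sox2, a neural gene, read 5833 in matUPD18 and 5337 in patUPD18.

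The scaling of the arrays sets the level to which each ratio refers. The 9 bacterial and phage hybridisation control probe sets were all lower on the matUPD18 array, with a median log2 ratio of -0.50. Scaled to those controls, the median of all measurable genes was 0.47, and of 10236 measurable genes 0.361% were past 2-fold lower in matUPD18 and 13.3% past 2-fold higher. Ermap (log2 ratio -1.15) was then the 1 member past 2-fold, with Slc4a1 and Hemgn both at -0.89, Kel at -0.39 and Rhag at -0.19, while Ank1 turned to 0.39, Car2 was 0.62 and Sptb 0.82. Relative to the median of all genes under that scaling, Ermap was at -1.62, Slc4a1 at -1.37 and Hemgn at -1.36. Under that scaling the partner list's median was 0.22, above 0, and below the 0.47 of all genes.

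**Figure D4:**
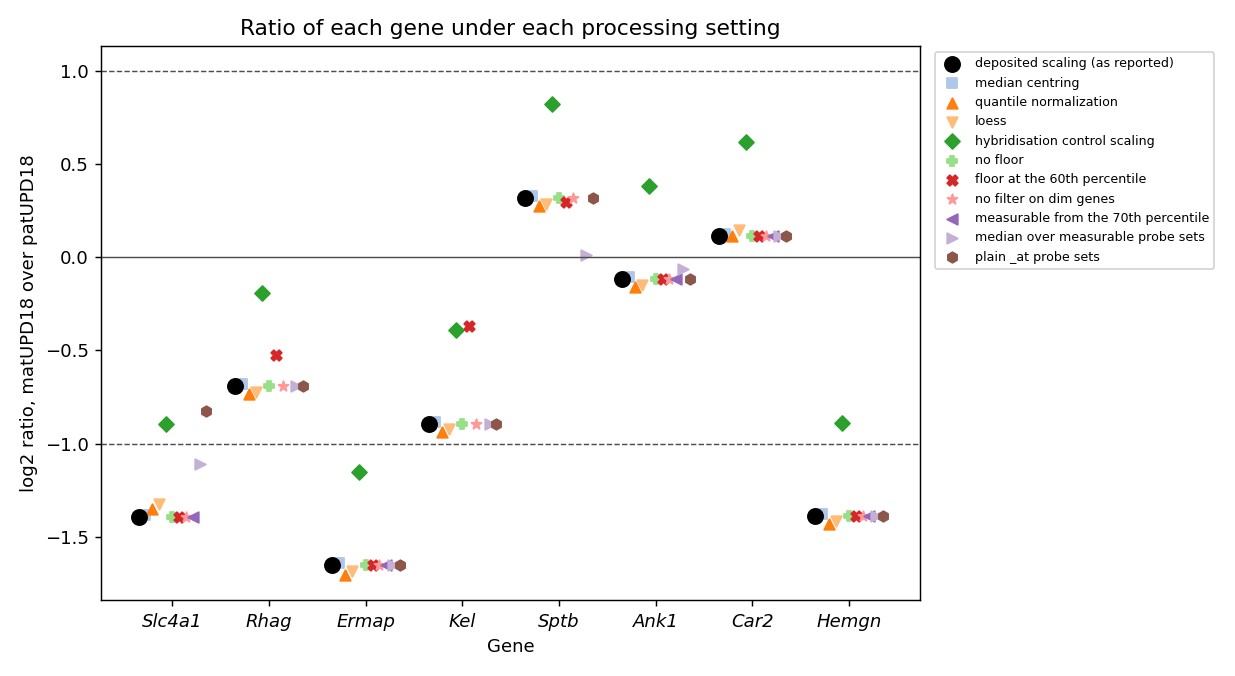
Log2 ratio of matUPD18 over patUPD18 for each of the 8 genes under the deposited scaling (large black points) and under each other processing setting (coloured symbols; 11 settings in all, with a gene left out where it was not measurable). Ermap stays below -1 under every setting shown, and the green diamonds, for scaling to the hybridisation controls, sit above the other points for every gene but Slc4a1, whose highest point is that with plain probe sets, and Kel, whose highest point is that with the floor at the 60th percentile.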

How the data were processed

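The deposited values are MAS5 signal intensities, which the authors made with MAS5 and GCOS per the submitters' processing notes, from RNA amplified with a RiboAmp kit and labelled with biotin per the labels' protocols. Their 2% trimmed mean was 500.0 on each array. Detection calls were not used here. Of 45101 probe sets, 34958 named 1 gene, 932 several and 9160 none, and 51 were array controls with no gene. Symbols were updated through the Entrez identifier (34754 matched the GRCm38.p6 RefSeq table). The median signal was 125.4 for matUPD18 and 122.0 for patUPD18, and 1 array per genotype limits every value.

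The measurable limit, floor, probe set rule, 2-fold count and ratio are as given above. The members and lists were chosen with earlier results of these data known. Genes were named as members, as list genes 2-fold apart, or as the brightest genes of a list (4 per list, 6 for markers). Exceptions are stated, apart from genes named as not measurable, under the floor or on chromosome 18. No gene was sought for likeness of pattern, since 2 arrays give 1 ratio. Alternatives were other scalings, floors, filters, probe set rules and fold limits, and the procedure was tested on simulated data. Loess used a span of 0.3. Python 3.11.15, pandas 2.3.3, numpy 2.4.6, statsmodels 0.14.6 and matplotlib 3.10.9 were used.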

Additional observations from a re-analysis of the deposited data

How the results depend on the processing

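With no replicate arrays, a value was taken as moved when it changed by at least 0.44, the pooled SD of log2 ratios between probe sets of a gene, and a count when it changed by over 1.5 times. Ermap stayed at least 2-fold lower in matUPD18 under all 11 settings run on the ratios, Hemgn under 10 and Slc4a1 under 9. Ermap and Hemgn each have a single plain probe set, with both signals above the 60th percentile. The floors, filters and probe set rules tried therefore left their ratios as they were, and only the other scalings could change them. The Slc4a1 ratio was -0.83 with plain probe sets alone. With scaling to the hybridisation controls, the count of members at least 2-fold lower was 1 (0.361% of all measurable genes) and their median -0.29. The medians were then 0.22 for partners, 0.68 for relatives (4 at least 2-fold higher) and 0.26 for actin-linked genes (1 at least 2-fold higher), where 13.3% of all measurable genes were at least 2-fold higher. With measurable genes taken from the 70th percentile, which leaves out Kel, Rhag and Sptb, the members' median was -1.39. With plain probe sets alone, 2 members, 0 partners and 1 actin-linked gene (Cfl1) were at least 2-fold lower, as were 167 of all 8835 measurable genes. Under that rule 1 relative (Car4) was at least 2-fold higher, as were 269 of all measurable genes. At 1.5-fold, 5 members, 4 partners and 1 relative were lower in matUPD18, where 8.74% of all measurable genes were. Higher at that limit were 4 relatives and 1 actin-linked gene, where 9.97% of all measurable genes were. At 3-fold, 1 member, Ermap, was lower, where 0.267% of all measurable genes were. Of the 136 comparisons of a list's count or median with its reported value, 119 did not move and 17 did. The 119 include counts that were 0 under every setting, and the setting with no floor, which left these values as they were. The 17 include counts taken at other fold limits. The tally is therefore not a measure of how stable the results are. The cause of each change was not tested beyond what the settings themselves alter. No paired analysis was possible because each genotype had 1 array. With the floor at the 60th percentile, Kel had a log2 ratio of -0.37 and Rhag one of -0.52, and the members' median was -0.45.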
